A study of Mus musculus with 6 samples.

Results

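Cone bipolar cells carry the signals of cone photoreceptors to the inner retina. The cells described here were chosen by 6 genes, Cck, Reln, Cnmd, Tnnt1, Unc13c and Vsx1: at least 3 of the 6 had to be detected in a cell, and none of its unique molecular identifiers (UMIs, each standing for 1 captured transcript) could come from Sebox, Fezf2, Tfap2b or Arr3. A cell counted only if 500 to 5000 genes were detected in it and no more than 20% of its UMIs were mitochondrial. Of the 38569 cells that met these limits, 579 were members, 243 from oxygen-induced retinopathy (OIR) retinas and 336 from control (Ctrl) retinas. Because Reln, Unc13c and Vsx1 were each detected in more of them than Cck or Cnmd, they are called Reln/Vsx1 cells below.

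OIR is a mouse model of ischemic retinopathy, in which pups kept in high oxygen lose retinal capillaries and the retina then becomes hypoxic on return to room air. The OIR pups here were kept in 75% oxygen from postnatal day (P) 7 to P12, then in normoxia for 5 days, and the Ctrl pups stayed in normoxia. All retinas were taken at P17, those of 2 mice were pooled for each sample, and there were 3 samples in each group, read by droplet single-cell RNA sequencing (10x Genomics, 3' chemistry version 3). No transgene, knockout or drug was named for any sample, and the strain was not given in the labels. The labels name retinal endothelial cells as the source, but the protocol dissociates the whole retina without a sort, and 10 vascular markers together held at most 0.014% of the UMIs of the Reln/Vsx1 cells in any sample. Members' transcripts of Xist and of Y-linked genes showed that Ctrl replicates 2 and 3 came from females (4431 and 4602 UMIs per 1000000 UMIs of the sum, CPM, of Xist) and the other 4 samples from males, so sex was not balanced between the groups.

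The OIR samples had 37872383, 24615436 and 25061712 UMIs, and the Ctrl samples 42606878, 19702233 and 15788524, from replicate 1 to replicate 3. The Reln/Vsx1 cells numbered 156, 33 and 54 in OIR and 275, 29 and 32 in Ctrl, so replicate 1 held most of them in both groups. Their summed UMIs were 1244921, 316313 and 487997 in OIR and 1762808, 239889 and 187539 in Ctrl. The median member had 7869, 9413 and 9412.5 UMIs in the OIR samples and 6343, 8506 and 6223.5 in the Ctrl samples. Any 2 of the libraries shared 3 to 17 barcodes among the cells kept and 0 among the members.

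Bipolar cells receive glutamate from photoreceptors and are of 2 broad kinds. ON bipolar cells read glutamate with the receptor mGluR6, encoded by Grm6, which acts through a G protein on the cation channel TRPM1 and depolarises the cell when light comes on. OFF bipolar cells use ionotropic receptors, among them the kainate receptor subunit encoded by Grik1. Isl1 is a transcription factor of ON bipolar cells, Vsx1 a homeobox factor of certain cone bipolar cells, and Prkca the classical marker of rod bipolar cells. Reln encodes the secreted glycoprotein reelin, Cck the neuropeptide cholecystokinin, Cnmd chondromodulin, Tnnt1 a troponin, and Unc13c a protein that primes synaptic vesicles.

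Markers that the rule did not use put most of these cells among ON cone bipolar cells. Isl1 was detected in 90.0% of them, Grm6 in 90.8% and Trpm1 in 96.5%, whereas Grik1 was detected in 14.9% and Prkca in 8.81%. Gng13, a G protein subunit of the same cascade, was found in 95.5% and Scgn, a calcium-binding protein of cone bipolar cells, in 78.9%. In 19154 rod-like cells, which should lack these genes, Isl1 was found in 1.58%, Grm6 in 1.41% and Trpm1 in 1.86%, at a median of 1741 UMIs per cell against 7114 in the Reln/Vsx1 cells. Further classes were set beside them. The 1969 rod bipolar-like cells carried Sebox and further rod bipolar markers such as Prkca and Car8, and the 1717 other cone bipolar-like cells carried marker pairs of other cone bipolar types. Among the other cone bipolar-like cells, which mix ON and OFF types, Grm6 was found in 51.8% and Grik1 in 47.5%.

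**Figure D1:**
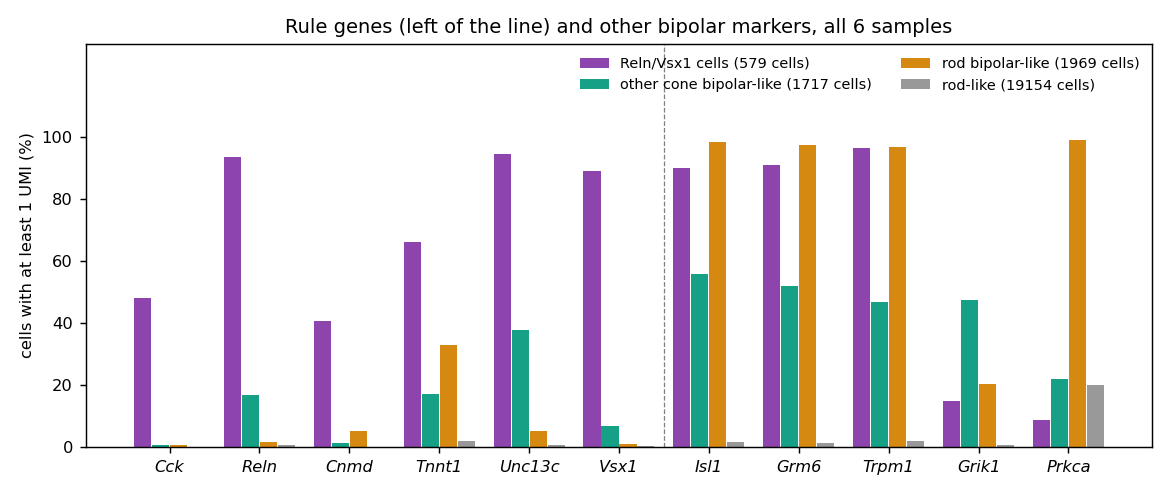
Percentage of cells with at least 1 UMI (vertical axis) of each rule gene, left of the dashed line, and of 5 markers outside the rule, right of it, in 4 classes of cells over all 6 samples (bars). Isl1, Grm6 and Trpm1 were detected in 90.0 to 96.5% of the Reln/Vsx1 cells and Grik1 in 14.9%.

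The rule itself fixed the levels of its genes, which are given as a description. Reln was detected in 93.4% of members, Unc13c in 94.5%, Vsx1 in 89.1%, Tnnt1 in 66.1%, Cck in 48.0% and Cnmd in 40.8%. In the summed cells of each sample, Cck stood at 161, 6.32 and 219 CPM in OIR and at 1150, 292 and 512 CPM in Ctrl. The groups did not overlap, and OIR replicate 2, with 33 members, was the lowest by far. Cnmd stood at 66.7, 18.97 and 86.1 CPM in OIR and at 224, 95.9 and 112 CPM in Ctrl, again without overlap. Reln ranged from 614 to 677 CPM in OIR and from 787 to 1025 CPM in Ctrl, while Vsx1 overlapped between the groups, with 777, 1277 and 1139 CPM against 593, 1071 and 1109 CPM. Tnnt1 and Unc13c also overlapped.

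Members just inside the limit resembled the rest less than those well inside it. The 220 cells with exactly 3 rule genes detected carried Isl1 in 78.6% and Grm6 in 82.3%, and the 142 cells with all 6 carried each in 99.3%. The 378 cells with exactly 2 rule genes, just outside, carried Isl1 in 54.2% and Grm6 in 52.9%, and Grik1 in 21.7% against 17.3% of those with 3.

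The rule took in more than 1 population. The most frequent combination was Reln, Unc13c and Vsx1 without the other 3 genes, seen in 144 cells, followed by all 6 genes together in 142 cells. A group of 390 cells had Reln together with Cck, Cnmd or Tnnt1. It made up 60.3, 48.5 and 72.2% of members in the OIR samples and 76.7, 41.4 and 56.3% in the Ctrl samples. The 144 cells with Reln but none of those 3 genes made up 30.1, 42.4 and 18.5% in OIR and 17.1, 51.7 and 34.4% in Ctrl. These 144 cells carried Igfn1, an immunoglobulin-domain gene, in 82.6% and Pcdh17, a protocadherin, in 81.2%, against 3.3% and 3.8% of the 390 cells. Lhx3, a LIM homeobox factor, went the other way, at 5.6% against 56.7%. Cck and Cnmd thus marked the larger group, and by its definition the smaller had neither.

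Another 38 cells had no Reln UMI, and among them Grik1 was detected in 68.4%, Neto1, an auxiliary subunit of kainate receptors, in 60.5%, and Isl1 in 23.7%. These few carried OFF rather than ON markers. The last 7 members, 6 in Ctrl replicate 1 and 1 in Ctrl replicate 2, had at least 5 of 20 amacrine, ganglion or horizontal cell markers. All 7 carried Gad1, Slc32a1 and Tfap2a, genes of GABAergic amacrine cells, and none had a UMI of Grm6, Trpm1 or Vsx1. These 4 groups were drawn after their values were seen and were not tested. Calls that rest on the 7 cells are given with and without them.

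**Figure D2:**
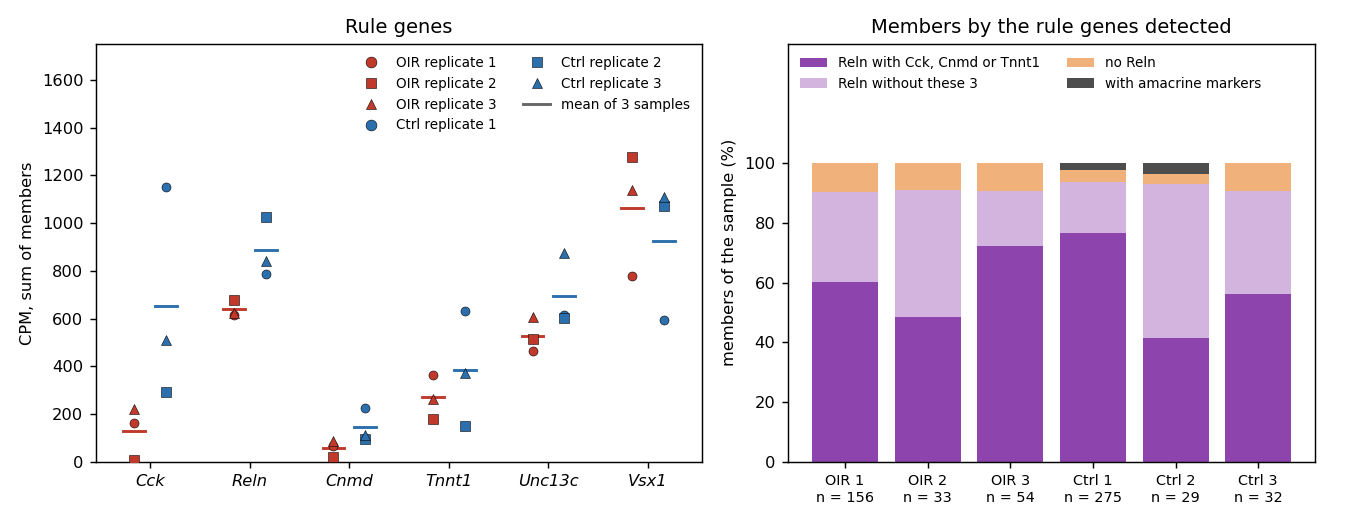
Left, summed level of each rule gene in CPM in each sample (points) with the mean of 3 samples (lines). Right, percentage of each sample's members that had Reln with Cck, Cnmd or Tnnt1, Reln without them, no Reln, or amacrine markers. Cck and Cnmd did not overlap between OIR and Ctrl, and the first group ranged from 41.4 to 76.7% of members.

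Compared with the other cone bipolar-like cells, the genes that stood out most beyond the rule were Igfn1, Pcp4l1, Adra2c and Smoc2. Pcp4l1, a PCP4-like peptide gene, averaged 508 CPM against 21.3 CPM over the 6 samples. Adra2c, which encodes an alpha-2 adrenergic receptor, averaged 127 CPM against 1.76 CPM, and Smoc2, a matricellular protein gene, 55.6 CPM against 1.42 CPM. Camkv, Sox5, Rgs3, Lhx3, Unc5d and Gpc6 were also among the 15 highest ratios. In the other direction Cabp5, a calcium-binding protein of many bipolar cells, averaged 51.3 CPM against 1068 CPM. As the classes were cut from the same cells by their genes, these ratios are descriptions.

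The Reln/Vsx1 cells made up 2.58% (95% exact binomial interval 2.19 to 3.01), 0.5998% (0.413 to 0.841) and 0.723% (0.544 to 0.942) of the cells kept in the OIR samples. In Ctrl they made up 3.85% (3.41 to 4.32), 0.540% (0.362 to 0.775) and 0.456% (0.312 to 0.643). Replicate 1 of each group was apart from the other 2, and the groups overlapped. The mean was 1.30 ± 1.11% in OIR and 1.61 ± 1.93% in Ctrl (SD, n = 3 each, exact permutation p = 1). Among bipolar cells of the 3 classes the share was steadier, at 13.0, 11.5 and 16.6% in OIR and 14.6, 10.3 and 11.3% in Ctrl, or 13.7 ± 2.64% against 12.1 ± 2.26% (SD, n = 3 each, exact permutation p = 0.5). With 3 samples against 3 the smallest two-sided p is 0.1, so no change in abundance could pass 0.05. The intervals cover counting error only.

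Whether OIR altered transcription in these cells was tested on the summed UMIs of each sample, 3 OIR against 3 Ctrl, with edgeR's quasi-likelihood test. A gene was called when its adjusted p (Benjamini-Hochberg) was below 0.05 and its log2 fold change was 0.25 or more in either direction. Of 6245 genes tested, 17 rose and 3 fell, which is 0.272% and 0.048% of them and 0.32% together. At an unadjusted p under 0.05, 4.96% of genes were higher and 5.17% lower. Fold changes below are OIR over Ctrl on the log2 scale with their standard error (SE), and adjusted p-values are over all 6245 genes. The genes that rose included regulators and targets of the hypoxia response (Hk2, Bnip3, Higd1a, Egln1, Ndrg1), glycolytic genes (Ldha, Slc16a3), the potassium channel subunit Kcne2, and 2 immune genes (H2-Ab1, C3). Among those that fell was Grin3a, an NMDA receptor subunit. Across the 20 genes, 19 had no overlap between the groups, and Snhg11 was the exception. Of all 6245 genes 16.3% had no overlap in either direction. Since members were pooled, the sums alone cannot tell a change in every cell from a change in the mix of cells. Within the 390 cells with Reln and Cck, Cnmd or Tnnt1, all 20 genes kept their direction and 18 did not overlap. Within the 144 cells with Reln but none of those 3 genes, 19 kept their direction and 14 did not overlap. The 20 genes were called on sums that included these cells, so agreement was partly built in. The 390 cells alone held 2649044 of the 4239467 UMIs of members. No share over all genes was computed within the groups, and these counts are descriptions. Whether the mix of cells changed was not tested, between these groups or within them.

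**Figure D3:**
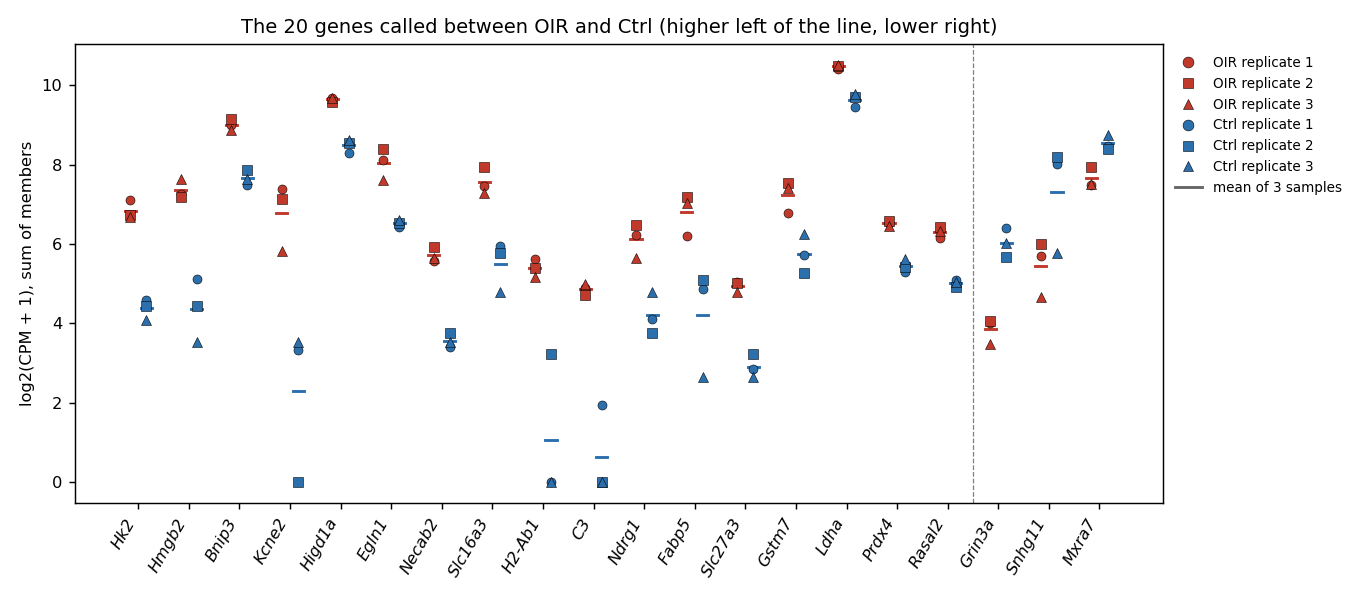
Level of the 20 genes called, as log2(CPM + 1) of each sample's summed members (points, with the mean of 3 samples as lines). The 17 that rose in OIR stand left of the dashed line and the 3 that fell right of it. Only Snhg11 overlapped between the groups.

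Cells short of oxygen stabilise hypoxia-inducible factor (HIF), a transcription factor that binds the core sequence ACGTG or its complement and turns on genes for glucose uptake, glycolysis and control of mitochondria. Egln1 encodes the prolyl hydroxylase that marks HIF for destruction in oxygen and is itself a HIF target. Bnip3 encodes a mitophagy receptor, Higd1a a small protein of the inner mitochondrial membrane, Hk2 the hexokinase bound to mitochondria, Ndrg1 a stress-response protein, Slc16a3 the lactate exporter MCT4 and Ldha a lactate dehydrogenase subunit.

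Of the 27 genes of the hypoxia list, 20 were tested, 5 rose and none fell, with a median log2 fold change of 0.66 against -0.01 over all genes tested. Hk2 (GRCm38, 6:82725025-82774454) stood at 138, 104 and 102 CPM in OIR and at 23.3, 20.8 and 15.997 CPM in Ctrl. The groups were far apart, and the log2 fold change was 2.40 ± 0.26 (SE, adjusted p = 0.0020). A UMI of Hk2 was found in 54.49, 54.55 and 50% of members in OIR and in 13.1, 10.3 and 9.38% in Ctrl. In rod-like cells of the same libraries, Hk2 had the opposite order, with 44.3, 14.3 and 15.6 CPM in OIR against 190, 120 and 125 CPM in Ctrl.

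Bnip3 (7:138890836-138909519) measured 508, 566 and 465 CPM in OIR and 179, 233 and 197 CPM in Ctrl, a log2 fold change of 1.34 ± 0.17 (SE, adjusted p = 0.0053). Higd1a (9:121848563-121858362) measured 818, 768 and 822 CPM against 315, 371 and 389 CPM, and Egln1 (8:124908587-124949324) 279, 335 and 195 CPM against 85.7, 91.7 and 96.0 CPM. Both rose without overlap, by 1.17 ± 0.16 and 1.56 ± 0.21 (SE, adjusted p = 0.0059 and 0.0060). The Ctrl samples of Egln1 lay close together, while OIR replicate 3 was the lowest of its group. Ndrg1 stood at 73.9, 88.5 and 49.2 CPM against 16.5, 12.5 and 26.7 CPM, a log2 fold change of 1.99 ± 0.32 (SE, adjusted p = 0.018). With each sample left out in turn, Hk2, Bnip3, Higd1a and Egln1 were called in 6 of 6 fits. Egln1 was not called with replicates 2 and 3 alone (adjusted p = 0.068), nor Higd1a with at least 2 rule genes (adjusted p = 0.091). Ndrg1 was called in 2 of 6 (adjusted p 0.016 to 0.147) and lost without OIR replicate 1, OIR replicate 2, Ctrl replicate 1 or Ctrl replicate 2.

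Of the 20 genes tested on the list, 17 were higher and 3 lower, with 12 higher and 0 lower at an unadjusted p under 0.05. The groups did not overlap for 11 genes higher in OIR and 0 lower, against 8.81% higher among all genes tested. Not all of the list rose. Slc2a1, the glucose transporter GLUT1, stood at 164, 107 and 107 CPM in OIR and at 73.7, 25.01 and 53.3 CPM in Ctrl. It was higher by 1.11 on the log2 scale without overlap, but did not pass the test (adjusted p = 0.171). Vegfa, the vascular growth factor, was at 125, 136 and 111 CPM against 104, 138 and 139 CPM, with a log2 fold change of 0.02 ± 0.19 (SE), and Hif1a overlapped as well, at -0.01 ± 0.17 (SE). These 3 were named after their values were seen.

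Windows at a RefSeq start of 5 of the genes that rose are shown because they hold the core sequence of the HIF site. Each is the 250 bases before the RefSeq gene start on the gene's own strand (GRCm38.p6), at 6:82774455-82774704 for Hk2, 7:138909507-138909756 for Bnip3, 8:124949255-124949504 for Egln1, 11:120948817-120949066 for Slc16a3 and 7:46845554-46845803 for Ldha. Capitals mark every ACGTG and its complement CACGT, and CACGTG counts once on each strand. RefSeq and GENCODE starts differ, so the windows of Slc16a3 and Ldha lie within the gene spans given here and those of Bnip3 and Egln1 overlap the ends of theirs. A second RefSeq start of Ldha had a window with 0 matches.
Hk2: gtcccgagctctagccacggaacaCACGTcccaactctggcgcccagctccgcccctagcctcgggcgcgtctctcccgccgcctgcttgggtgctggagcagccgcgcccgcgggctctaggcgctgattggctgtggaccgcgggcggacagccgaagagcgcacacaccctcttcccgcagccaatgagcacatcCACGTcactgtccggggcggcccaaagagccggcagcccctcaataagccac
Bnip3: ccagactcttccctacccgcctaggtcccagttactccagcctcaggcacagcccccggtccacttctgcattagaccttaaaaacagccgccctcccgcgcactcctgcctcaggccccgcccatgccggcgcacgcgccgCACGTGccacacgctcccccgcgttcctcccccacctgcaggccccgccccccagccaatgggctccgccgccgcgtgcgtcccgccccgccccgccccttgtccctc
Egln1: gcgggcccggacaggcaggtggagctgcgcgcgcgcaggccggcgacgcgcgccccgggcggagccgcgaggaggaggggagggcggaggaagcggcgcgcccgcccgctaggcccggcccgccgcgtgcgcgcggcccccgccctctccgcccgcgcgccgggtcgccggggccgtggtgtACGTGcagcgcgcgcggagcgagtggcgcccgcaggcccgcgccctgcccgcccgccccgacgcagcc
Slc16a3: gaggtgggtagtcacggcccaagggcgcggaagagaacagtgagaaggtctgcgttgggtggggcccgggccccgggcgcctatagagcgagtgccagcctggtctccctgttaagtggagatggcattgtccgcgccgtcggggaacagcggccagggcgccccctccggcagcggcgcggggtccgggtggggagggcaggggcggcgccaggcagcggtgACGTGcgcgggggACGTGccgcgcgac
Ldha: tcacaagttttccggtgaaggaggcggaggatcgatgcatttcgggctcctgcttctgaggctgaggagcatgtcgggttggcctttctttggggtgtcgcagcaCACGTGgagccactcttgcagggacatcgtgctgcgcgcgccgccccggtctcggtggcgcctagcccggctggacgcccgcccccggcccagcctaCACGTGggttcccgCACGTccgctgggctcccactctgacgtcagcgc

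The Hk2 window held 2 matches, that of Bnip3 2, that of Egln1 1, that of Slc16a3 2 and that of Ldha 5. The window of Higd1a held none, and Ndrg1 had none to search. Among the 14 genes that rose and had a window, 7 (50%) held the motif, as did 12 of 16 hypoxia genes (75%) and 8 of 20 glycolysis genes (40%). The share was 16.6% of all 32851 windows of this length and 27.3% of the 4944 tested genes with a window. A match is a string of letters and does not show binding.

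Glycolytic genes were among those that rose. Of 21 genes on the list 20 were tested, 3 rose (Hk2, Slc16a3, Ldha) and none fell, and the median log2 fold change was 0.53. The median was 0.30 with sex as a term and 0.34 with at least 2 rule genes. The number called was 6 without Ctrl replicate 1, 8 with at least 4 rule genes and 2 without any other 1 sample. Slc16a3 (11:120948480-120960868) stood at 176, 243 and 154 CPM in OIR against 60.7, 54.2 and 26.7 CPM in Ctrl, a log2 fold change of 1.77 ± 0.25 (SE, adjusted p = 0.0061) that was called in 6 of 6 fits with a sample left out. Ldha (7:46841475-46855627) stood at 1357, 1442 and 1459 CPM against 699, 825 and 874 CPM, at 0.82 ± 0.15 (SE, adjusted p = 0.047). Its call was close to the limit and held only without Ctrl replicate 1 (adjusted p 0.043 to 0.182 over the 6 fits). The 21 genes together took 2.61, 2.48 and 2.51% of members' UMIs in OIR and 1.69, 1.62 and 1.74% in Ctrl.

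Gapdh, the most abundant of them, measured 7115, 7685 and 7809 CPM against 4151, 4452 and 4719 CPM without passing the test (adjusted p = 0.067), and Pgk1 and Eno1, named after their values were seen, likewise did not overlap (adjusted p = 0.055 and 0.067). In all, 13 of the 20 had higher values in every OIR sample than in any Ctrl sample, against 8.81% of all genes tested. DESeq2 called 6 of the list, adding Pgk1, Eno1 and Gapdh.

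Kcne2, the gene of a regulatory subunit of voltage-gated potassium channels (16:92292389-92298129), had the largest log2 fold change of the 17 after H2-Ab1. It stood at 166, 139 and 55.3 CPM in OIR, from 207, 44 and 27 UMIs, and at 9.08, 0 and 10.7 CPM in Ctrl, from 16, 0 and 2 UMIs. Every OIR sample was above every Ctrl sample, with OIR replicate 3 the lowest, and the log2 fold change was 3.89 ± 0.52 (SE, adjusted p = 0.0059). It was called in 6 of 6 fits with a sample left out, and not with replicates 2 and 3 alone (adjusted p = 0.068). It did not overlap within the 390 cells with Reln and Cck, Cnmd or Tnnt1 either, at 216, 128 and 68.1 CPM against 10.3, 0 and 21.1 CPM. In OIR 47.4, 42.4 and 25.9% of members had a UMI of it, with up to 15 in 1 cell. In Ctrl 5.82, 0 and 6.25% had one, never more than 1 per cell. A count of 0 in 29 cells allows a share of cells with a UMI of up to 10.3% and sets no limit on cells that express the gene. With each cell thinned to 1000 UMIs the shares were 16.8, 12.5 and 7.41% against 1.46, 0 and 3.13%.

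In rod-like cells a UMI of Kcne2 was found in 3.50, 0.55 and 0.62% in OIR and 3.34, 0.35 and 0.16% in Ctrl, so the Ctrl shares of members are to be read with this background. The gene is abundant in rod bipolar-like cells, where 70.1 to 81.0% of OIR cells and 69.0 to 76.0% of Ctrl cells carried it. The 102 OIR members with Kcne2 carried the rod bipolar markers Prkca in 10.8% and Car8 in 45.1%, against 12.1% and 38.3% of the 141 without it, at median depths of 8495.5 and 8325 UMIs. Kcne2 is also expressed in cones. The other 7 cone markers apart from Gngt2 summed to 290, 56.9 and 127 CPM in OIR members. In Ctrl members they summed to 268, 79.2 and 69.3 CPM, and the groups overlapped. Gngt2 did not overlap, at 1208, 967 and 988 CPM in OIR against 751, 609 and 651 CPM in Ctrl. It was not called (adjusted p = 0.171). In the test of differences between classes given below, Gngt2 differed from other cone bipolar-like cells (adjusted p = 0.0055).

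**Figure D4:**
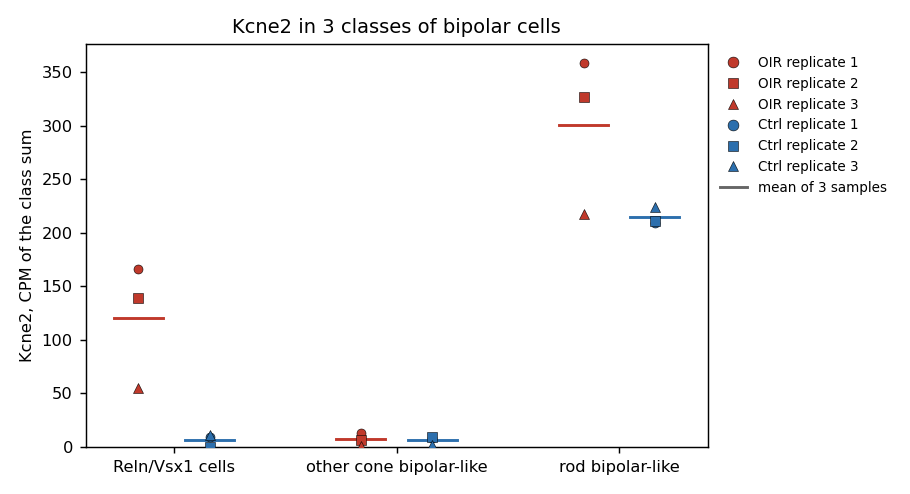
Kcne2 in CPM of the summed cells of each class (vertical axis) in each sample (points) with the mean of 3 samples (lines), for 3 classes of bipolar cells. In the Reln/Vsx1 cells OIR lay between 55.3 and 166 CPM and Ctrl between 0 and 10.7 CPM, whereas OIR and Ctrl overlapped in the other 2 classes.

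Among immune genes, 2 rose from few UMIs. H2-Ab1, a chain of the class II antigen-presenting molecule (17:34257689-34269419), had 60, 13 and 17 UMIs in OIR members and 0, 2 and 0 in Ctrl members, or 48.2, 41.1 and 34.8 CPM against 0, 8.34 and 0 CPM. The ratio of the summed counts was 48.1 (95% counting interval 12.9 to 403, adjusted p = 0.0068). Without Ctrl replicate 1, which held most Ctrl UMIs and none of H2-Ab1, the ratio was 9.39 (2.52 to 78.7) and the fitted log2 fold change 3.16 in place of 5.22. Of the 2 Ctrl UMIs, 1 came from a cell with amacrine markers. Without the 7 such cells edgeR still called H2-Ab1 (adjusted p = 0.0027), and the ratios were not computed without them. UMIs of H2-Ab1 were found in 18.6, 21.2 and 18.5% of OIR members, in 0.791, 0.098 and 0.137% of OIR rod-like cells, and in 0 of 275, 2 of 29 and 0 of 32 Ctrl members; the zeros allow shares of cells with a UMI of up to 1.09 and 9.38%, which limit detection and not expression. The partner chain H2-Aa and H2-Eb1 had 0 UMIs and Cd74, the chaperone of the class II molecule, had 3 in all members. C3, the central complement component (17:57203970-57228136), had 36, 8 and 15 UMIs against 5, 0 and 0, a ratio of 12.6 (5.11 to 40.3, adjusted p = 0.0097). Without Ctrl replicate 1 the Ctrl count was 0, and against a floor of 3 counts over the group C3 was at least 4.10-fold higher.

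With a sample left out the call of H2-Ab1 was lost without any 1 of the 3 OIR samples or Ctrl replicate 1 (adjusted p up to 0.147), and that of C3, which 3 of the fits tested, without OIR replicate 2 (0.071). The microglia and leukocyte list summed to 8.84, 3.16 and 135 CPM in OIR members and to 112, 0 and 0 CPM in Ctrl members. C1qa and C1qb were its most abundant genes, at close levels, and S100a8 and S100a9 were at 0. OIR replicate 3 and Ctrl replicate 1 were the high samples of the list. They were also the high samples of C3, at 28.9, 25.3 and 30.7 CPM in OIR and 2.84, 0 and 0 CPM in Ctrl, but not of H2-Ab1, and the part of such transcripts in the result was not tested. H2-D1 and H2-K1, of class I, stood at 75.5, 60.1 and 67.6 CPM against 46.5, 16.7 and 42.7 CPM, and at 94.0, 44.3 and 38.9 CPM against 36.3, 4.17 and 5.33 CPM, and were not called (adjusted p = 0.368 and 0.379). Of the 26 genes of antigen presentation and interferon response on the list 5 were tested with 0 called by edgeR and 2 at an unadjusted p under 0.05, and DESeq2 gave none of the 5 an adjusted p. H2-Ab1 and C3 are not on that list, and the other class II genes were looked up after the values of H2-Ab1 were seen.

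The remaining genes that rose serve varied functions. Hmgb2, a chromatin protein (8:57511907-57515999), stood at 153, 145 and 199 CPM in OIR and at 34.0, 20.8 and 10.7 CPM in Ctrl, a log2 fold change of 2.51 ± 0.27 (SE, adjusted p = 0.0020) that held in 6 of 6 fits. Rod-like cells had 361, 331 and 420 CPM of Hmgb2 in OIR against 223, 164 and 166 CPM in Ctrl, thus in the same order. Necab2, a neuronal calcium-binding protein gene, stood at 46.6, 60.1 and 49.2 CPM against 9.64, 12.5 and 10.7 CPM, at 2.26 ± 0.31 (SE, adjusted p = 0.0061), and Fabp5, a fatty acid-binding protein gene, at 73.1, 145 and 129 CPM against 28.4, 33.3 and 5.33 CPM, at 2.02 ± 0.35 (SE, adjusted p = 0.032). Neither overlapped. Necab2 lost its call without any 1 OIR sample or Ctrl replicate 1 (adjusted p up to 0.1002), and Fabp5 without OIR replicate 2, OIR replicate 3 or Ctrl replicate 2 (up to 0.115). With no upper limit on the genes per cell both shrank and were not called, to 0.28 for Necab2 (adjusted p = 0.854) and 0.31 for Fabp5 (adjusted p = 0.840). With at least 2 rule genes Necab2 was at 0.93 (adjusted p = 0.332), and with at least 4 Fabp5 was at 3.07 and still called.

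Slc27a3, a fatty acid transport protein gene, Gstm7, a glutathione transferase gene, Prdx4, a peroxiredoxin gene, and Rasal2, a Ras GTPase-activating protein gene, rose by 2.19, 1.44, 1.14 and 1.21 on the log2 scale (SE 0.39, 0.26, 0.21 and 0.22). Their adjusted p-values lay between 0.038 and 0.047. Leaving out a sample ended the call of Slc27a3 in 5 of 5 fits that tested it and of Rasal2 in 6 of 6, whichever sample was left out. That of Gstm7 held in 2 of 6, without OIR replicate 1 or Ctrl replicate 3, and that of Prdx4 held only without Ctrl replicate 3. Prdx4 was also not called by DESeq2 (adjusted p = 0.149) or with replicates 2 and 3 alone (adjusted p = 0.223). Rasal2 was also not called with sex as a term (adjusted p = 0.056).

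Grin3a, which encodes the NMDA receptor subunit GluN3A (4:49661611-49845744), fell. It stood at 15.3, 15.8 and 10.2 CPM in OIR and at 83.4, 50.02 and 64.0 CPM in Ctrl, a log2 fold change of -2.35 ± 0.31 (SE, adjusted p = 0.0059). Its UMIs were found in 10.3, 6.06 and 7.41% of OIR members and in 28.4, 17.2 and 21.9% of Ctrl members, against 0.146% of rod-like cells over all samples. The call was lost without Ctrl replicate 1 (adjusted p = 0.059) and with replicates 2 and 3 alone (adjusted p = 0.086). Grin3a was detected in 27.2% of the 390 cells with Cck, Cnmd or Tnnt1 and in 2.1% of the 144 cells with none of them. Within the 390 cells it measured 24.7, 7.53 and 14.2 CPM in OIR and 110, 135 and 126 CPM in Ctrl, also without overlap. Within the 144 cells it had 7 UMIs in all, at 2.59, 25.7 and 0 CPM in OIR and 0, 14.2 and 0 CPM in Ctrl, with overlap and a higher mean in OIR. It was the only called gene whose means had the opposite order in that group.

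Mxra7, a matrix-remodelling-associated gene, stood at 179, 247 and 182 CPM against 354, 338 and 432 CPM, at -0.92 ± 0.17 (SE, adjusted p = 0.049), a call that held in 1 of 6 fits, without Ctrl replicate 1. With sex as a term it was not called (adjusted p = 0.061). Snhg11, a noncoding RNA gene, stood at 50.6, 63.2 and 24.6 CPM against 257, 292 and 53.3 CPM, at -2.25 ± 0.42 (SE, adjusted p = 0.049). Of its Ctrl UMIs, 179 of 453 in replicate 1 and 35 of 70 in replicate 2 came from the 7 cells with amacrine markers. Without those 7 cells it was not called (adjusted p = 0.064), while the other 19 genes were. With a sample left out it held in 1 of 6 fits, without Ctrl replicate 3 (adjusted p up to 0.207). DESeq2 did not call it (adjusted p = 0.236), nor did edgeR with replicates 2 and 3 alone (adjusted p = 0.177), and with at least 2 rule genes it was at -0.95 and not called (adjusted p = 0.368). Nfe2l1, Dbp and Usp2 came next by p and were not called. Dbp, a clock output factor, stood at 357, 237 and 248 CPM against 720, 596 and 464 CPM, at -1.09 ± 0.22 (SE, adjusted p = 0.061).

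In the test of OIR against Ctrl, edgeR called no gene of the cascade that reads glutamate in ON bipolar cells. Of the 14 genes of the ON cascade 13 were tested with 0 called, 0 higher and 3 lower at an unadjusted p under 0.05, and a median log2 fold change of -0.32. Gng13 stood at 2261, 2169 and 2814 CPM in OIR and at 3062, 4406 and 4975 CPM in Ctrl, without overlap, at -0.79 ± 0.20 (SE, adjusted p = 0.133). DESeq2 called it lower and none of the other genes of the list among the 11 to which it gave an adjusted p. Trpm1 stood at 841, 1040 and 1090 CPM against 1179, 1321 and 1488 CPM (adjusted p = 0.348). Grm6 had the opposite order, at 1084, 1132 and 1133 CPM against 907, 950 and 917 CPM, and was not called (adjusted p = 0.612). In the test of differences between classes given below, Trpm1 differed from rod bipolar-like cells by -0.54 (adjusted p = 0.036). That call held in 1 of 6 fits with a sample left out. The list's median was 0.13 in rod bipolar-like cells and 0.03 in other cone bipolar-like cells, with 1 gene called lower in the latter. Of 10 OFF markers 7 were tested with 0 called, 3 at an unadjusted p under 0.05, all higher, and a median of 0.53. DESeq2 gave 3 of the 7 an adjusted p and called none of those. Lhx3 and Neto1 led them (adjusted p = 0.380 and 0.414). Lhx3 went against the list's name here. It was detected in 43.9% of the Reln/Vsx1 cells and in 6.41% of the other cone bipolar-like cells, which include OFF types. The 38 cells without Reln, which carried OFF markers, made up 9.62, 9.09 and 9.26% of members in the OIR samples. In the Ctrl samples they made up 4, 3.45 and 9.38%. Their part in the values of the OFF list was not tested.

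Synaptic genes were likewise uncalled by edgeR in the test of OIR against Ctrl. DESeq2 gave an adjusted p to 20 of the 25 genes tested of the ribbon list, 9 of 15 receptor genes and 8 of 15 channel genes, and called none of those. Of 31 genes of the ribbon synapse and transmitter release 25 were tested, 1 higher and 4 lower at an unadjusted p under 0.05, with a median of -0.14. Sv2a, a synaptic vesicle protein gene, stood at 230, 262 and 201 CPM against 317, 333 and 325 CPM (adjusted p = 0.255), and Cacna2d4, an auxiliary calcium channel subunit gene, at 178, 212 and 184 CPM against 224, 391.8 and 256 CPM (adjusted p = 0.329). Of 35 transmitter receptor genes, a list without Grin3a, 15 were tested, with 4 lower and 0 higher at that p. Gabrr2, a GABA receptor subunit gene, stood at 282, 316 and 207 CPM against 330, 425 and 373 CPM (adjusted p = 0.380). Of 34 voltage-gated channel genes 15 were tested, 2 lower at that p, with Cacna2d3 at -0.77 ± 0.19 (SE, adjusted p = 0.133). In the test of differences between classes given below, Sv2a differed from rod bipolar-like cells by -0.71 (adjusted p = 0.044). That call held in 1 of 6 fits with a sample left out, and was lost without the 7 cells with amacrine markers (adjusted p = 0.109).

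The translation and respiration lists differed from each other in direction without a call. Of 80 ribosomal protein genes 77 were tested, 71 were higher in OIR, 16 at an unadjusted p under 0.05, with a median of 0.24, 0 called by edgeR and 0 by DESeq2. Of all 6245 genes tested 3032 were higher, 310 (4.96%) at that p, and 3213 lower, 323 (5.17%) at that p. The ribosomal median was 0.28 in rod bipolar-like cells, with 1 gene called higher, and 0.12 in other cone bipolar-like cells, with 0 called. Rpl10a stood at 890, 942 and 961 CPM against 701, 529 and 533 CPM (adjusted p = 0.166). All 13 mitochondrially encoded genes were lower, 2 of them at an unadjusted p under 0.05 and 0 called by edgeR, or by DESeq2 among the 11 to which it gave an adjusted p, with a median of -0.62. Their sum held 6.47, 2.30 and 2.31% of members' UMIs in OIR and 8.21, 3.54 and 3.49% in Ctrl, so replicate 1 was the high sample in both groups and the groups overlapped. The mitochondrially encoded list had a median of -0.32 in rod bipolar-like and -0.34 in other cone bipolar-like cells. Nuclear genes of the respiratory chain had a median of -0.02 in members. In all cells kept the median mitochondrial share was 5.86, 2.24 and 2.30% in OIR and 8.08, 3.31 and 2.88% in Ctrl, the same order of samples, and the part of this in the result was not tested.

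Transcripts of other cell types were low. Rod markers held 0.825, 0.264 and 0.647% of members' UMIs in OIR and 0.946, 0.458 and 0.436% in Ctrl, and the 16 of them had 0 calls by edgeR, 0 at an unadjusted p under 0.05 and 0 by DESeq2 among the 15 to which it gave an adjusted p. Among Mueller glia markers, Gfap was at 0 and Apoe was the most abundant, with 963, 18.97 and 346 CPM in OIR and 483, 45.9 and 21.3 CPM in Ctrl. Replicate 1 of each group was again the high sample of Apoe. Of the 13 genes of the Mueller list 4 were tested with 0 called, 1 higher and 3 lower, with a median of -0.63. Glul, at a log2 fold change of -0.90, was lower at an unadjusted p under 0.05. Gngt2, a cone transducin subunit gene, stood at 1208, 967 and 988 CPM against 751, 609 and 651 CPM and was not called (adjusted p = 0.171).

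The same contrast was then run in the other bipolar classes, which come from the same 6 libraries and so are not independent of it. In rod bipolar-like cells Hk2 changed by 2.16 ± 0.23, Bnip3 by 1.30 ± 0.17, Egln1 by 1.47 ± 0.17 and Hmgb2 by 1.63 ± 0.27 on the log2 scale (SE). In other cone bipolar-like cells the values were 1.68 ± 0.34, 0.93 ± 0.17, 1.09 ± 0.20 and 1.76 ± 0.22 (SE), and all 8 were called. Of all genes tested, 1.04% rose and 1.05% fell in rod bipolar-like cells. In other cone bipolar-like cells 0.287% rose and 0.252% fell. Of the 20 genes called in the Reln/Vsx1 cells 17 were tested in each class, and 13 were called in rod bipolar-like and 10 in other cone bipolar-like cells. Higd1a, Ldha, Prdx4 and Rasal2 were called in rod bipolar-like cells and not in other cone bipolar-like cells (adjusted p = 0.228, 0.612, 0.399 and 0.110). H2-Ab1 changed by 5.58 ± 0.68 and 4.21 ± 0.54 (SE), also called. The hypoxia list had a median of 0.64 in rod bipolar-like and 0.43 in other cone bipolar-like cells, and the glycolysis list 0.39 and 0.13. Whether a gene's response differed between classes was tested as the interaction of class and condition, with the sample as a block. The difference was called for none of these 5 genes against either class (adjusted p of 0.078 and above), which does not show that the responses are equal.

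Against rod bipolar-like cells the interaction was called for 30 of 10117 genes (0.297%), 15 in each direction (0.148% each way). Against other cone bipolar-like cells it was called for 10 of 8873 genes (0.113%), 7 higher and 3 lower (0.0789% and 0.0338%). Of the 20 genes called in the Reln/Vsx1 cells, Kcne2 was the only one with a called difference in either test. Its log2 fold change exceeded that in rod bipolar-like cells by 3.38 ± 0.33 (SE, adjusted p = 4.9e-06), where Kcne2 stood at 359, 327 and 217 CPM in OIR against 209, 211 and 224 CPM in Ctrl. It exceeded that in other cone bipolar-like cells by 3.904 ± 0.52 (SE, adjusted p = 0.00020), where Kcne2 stood at 13.4, 6.49 and 1.07 CPM against 8.73, 9.40 and 1.95 CPM. The first call held in 6 of 6 fits with a sample left out and the second in 5 of 6, lost without Ctrl replicate 1 (adjusted p = 0.205).

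**Figure D5:**
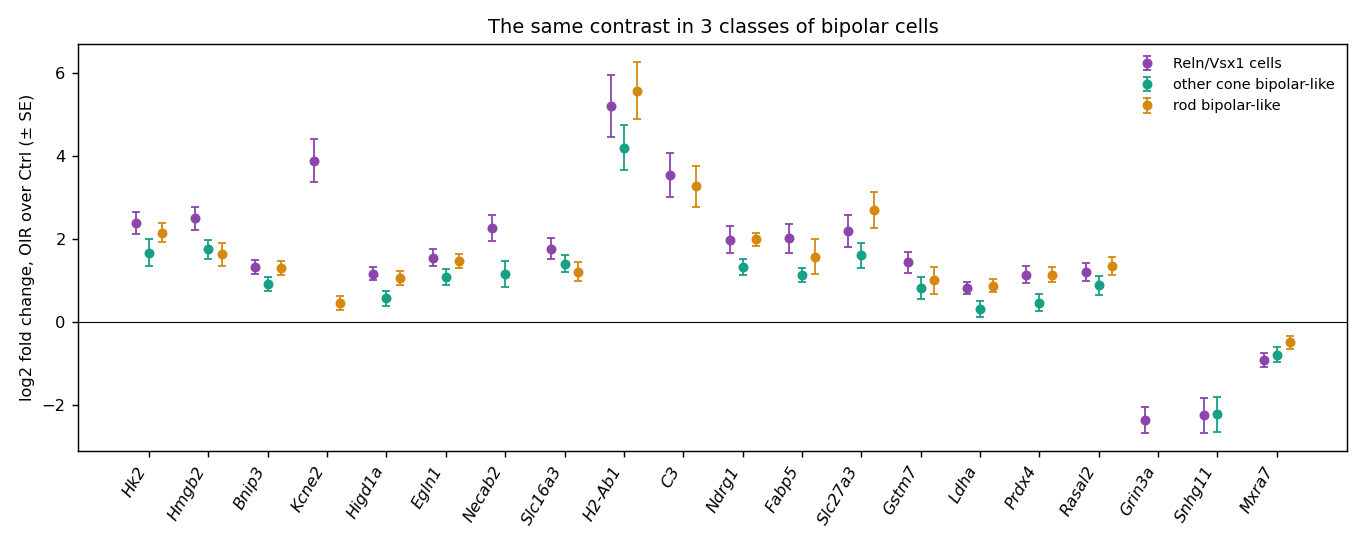
Log2 fold change of OIR over Ctrl (points) with its SE (bars) for the 20 genes called in the Reln/Vsx1 cells, in 3 classes of bipolar cells from the same libraries; a class is left out where the gene had too few counts to be tested. Kcne2, at 3.89 in the Reln/Vsx1 cells and 0.46 in rod bipolar-like cells, was the gene with a called difference.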

How the data were processed

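Per the labels, retinas of 2 P17 mice were pooled for each of 3 OIR and 3 Ctrl samples and sequenced with the 10x Genomics 3' kit. The deposited matrices hold the authors' raw counts (UMIs per gene and barcode) for 31053 genes. Their headers name software version 3.1.0 and the labels build mm10; the study's methods name Cell Ranger with default parameters but another version and a human reference, although the gene identifiers are of mouse. Depth was 15788524 to 42606878 UMIs per sample. No doublets were removed; leaving out the cells with the highest Scrublet scores (11, 0 and 4 OIR and 17, 0 and 0 Ctrl members) was an alternative.

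Members were chosen by the rule in the opening, and their raw counts were summed per sample. The members and the gene lists were chosen with earlier results of these data known. Sums were tested with edgeR 4.0.16 (R 4.3.3; TMM, filterByExpr, glmQLFit, glmQLFTest), with Benjamini-Hochberg adjustment over all genes tested, and differences between classes as an interaction with the sample as a block. DESeq2 1.42.0 was an alternative, as were no filter, no TMM, a sex term, other limits of the rule, thinning to 1000 UMIs and leaving out samples. That without the 7 cells with amacrine markers was chosen after seeing the data. The fits were tested on simulated data, where the share of false calls was above the nominal level in most runs, so calls near the threshold are the least certain. Other cells were classed by markers: rod-like cells had at least 8 of 16 rod markers and none of 8 genes of other types.

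Named genes were, in each direction, up to 12 called genes of lowest p whose groups did not overlap, filled to 6 by p; of each list the 2 of lowest p and all called; for each difference up to 5 per direction; and the rule and marker genes. A few genes that the rule names are not reported here. Other genes are said to be chosen after their values were seen, or, for Slc27a3, Gstm7, Prdx4 and Rasal2, complete the count of calls. Nothing says whether the 3 samples of a group came from separate litters, so p-values measure the spread between these pools. UMI intervals cover counting error only. Promoter windows come from RefSeq (GRCm38.p6) and gene positions from GENCODE M21 (GRCm38); 4944 of the 6245 tested genes had a window.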

Additional observations from a re-analysis of the deposited data

Results flagged for a closer look

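The genes below were noted because the test of the interaction called a difference in the OIR effect between the Reln/Vsx1 cells and another class of bipolar cells. Values are differences of log2 fold changes, positive where the Reln/Vsx1 cells had the larger one, by edgeR with an adjusted p. Levels are CPM of the summed cells from replicate 1 to replicate 3.

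Against rod bipolar-like cells, Kcne2 differed by 3.38 (adjusted p = 4.9e-06) and Mir670hg, a noncoding RNA gene, by 2.51 (0.0010). Mir670hg stood at 96.4, 94.8 and 69.7 CPM in OIR and 109, 75.0 and 85.3 CPM in Ctrl members, which overlap, but at 2.87, 1.88 and 2.07 CPM against 18.0, 13.9 and 8.94 CPM in rod bipolar-like cells. Mt1, a metallothionein gene, differed by 0.94 (0.0010), with 1279, 1470 and 557 CPM against 375, 517 and 363 CPM in members. Fos, an immediate early gene, differed by 1.99 (0.0056), with 471, 168 and 221 CPM against 466, 70.9 and 53.3 CPM in members, which overlap, and 93.2, 21.3 and 72.5 CPM against 257, 164 and 141 CPM in rod bipolar-like cells. Kcnj9, an inward-rectifier potassium channel gene, differed by 1.45 (0.0056), with 34.0, 29.5 and 25.5 CPM against 98.9, 103 and 82.4 CPM in rod bipolar-like cells and overlapping groups in members. For Mir670hg, Fos and Kcnj9 the difference thus came with lower OIR levels in rod bipolar-like cells.

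In the other direction, Fgf11, a fibroblast growth factor homologue, differed by -2.41 (0.0010), with 42.0, 63.9 and 55.9 CPM against 4.18, 7.33 and 6.95 CPM in rod bipolar-like cells. In members it stood at 47.39, 47.42 and 57.4 CPM against 20.4, 45.9 and 42.7 CPM, narrowly without overlap. Cabp2, a calcium-binding protein gene, differed by -1.16 (0.010, lost without OIR replicate 1 at 0.053). Aqp4, a water channel gene of glia, differed by -3.14 (0.017), on 4.82, 3.16 and 6.15 CPM against 17.6, 0 and 10.7 CPM in members, and its call was lost without Ctrl replicate 1 (0.830). Ralyl and Cdkn1c differed by -4.56 and -3.60 (0.00010 and 0.017), but not without the 7 members with amacrine markers (0.347 and 0.860). Cdkn1c was also lost without OIR replicate 1 (0.072).

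Against other cone bipolar-like cells, Kcne2 differed by 3.904 (0.00020). Col9a1, a collagen gene, differed by 2.59 (0.00020), at 181, 0 and 14.3 CPM in OIR and 27.2, 0 and 15.997 CPM in Ctrl members, and lost its call without OIR replicate 1 (0.817). Crym, a crystallin mu gene, differed by 2.29 (0.025), at 76.3, 9.48 and 26.6 CPM against 19.3, 0 and 5.33 CPM, and was also lost without OIR replicate 1 (0.720). Gngt2 differed by 0.89 (0.0055), with 410, 291 and 417 CPM against 513, 362 and 391 CPM in the other class, and was lost without Ctrl replicate 1 (0.065). Sphkap, an anchoring protein gene of protein kinase A, differed by 1.19 (0.025), at 319, 373 and 193 CPM against 132, 217 and 133 CPM in members, which overlap, and was called in 4 of 6 fits with a sample left out, lost without OIR replicate 1 or Ctrl replicate 1 (up to 0.398). Meis2, Cdkn1c and Vsnl1 differed by -2.31, -2.72 and -2.42 (0.00099, 0.0087 and 0.028), but without the 7 cells with amacrine markers their adjusted p-values were 0.998 or above.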

How the results depend on the processing

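For the genes called in the Reln/Vsx1 cells, 17 higher and 3 lower, the alternatives gave 105 higher and 113 lower without a filter on low counts, 28 and 20 with sex as a term, 26 and 13 with at least 4 rule genes, and 5 and 1 with thinned cells, when 777 genes were tested. Replicates 2 and 3 alone gave 11 lower, no upper limit on genes 7 lower and DESeq2 7 lower. The number of genes tested differed between alternatives, so these counts are not directly comparable. Without a filter all 16454 genes with a UMI were tested, against 6245 in the main fit. With each sample left out in turn the counts ranged from 9 to 38 higher and from 1 to 17 lower, most of both without Ctrl replicate 1. Bnip3, Hk2, Hmgb2 and Slc16a3 were called under every alternative that tested them, and all 20 kept their direction under each alternative that tested them, which was 12 of the 20 for C3, 14 for Slc27a3, 16 for H2-Ab1 and 17 or more for the others. The fitted log2 fold change of H2-Ab1, 5.22, was 7.91 with sex as a term and ranged from 3.16 without Ctrl replicate 1 to 8.07 without Ctrl replicate 2. Of the hypoxia list, 5 genes called, 3 were called with replicates 2 and 3 alone or with at least 2 rule genes, and 8 without a filter. With the replicate number as a block 73 were higher and 54 lower, 11 of the glycolysis list and 9 of the hypoxia list among the higher. The deviations of same-numbered samples correlated at 0.304, 0.138 and 0.0748, and those of the other pairs at -0.179 to 0.032. Every sample thus correlated best with its own number. The labels name no batch or pairing, so the main fit had no block. Whether same-numbered samples were handled together was not tested.

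Differences from rod bipolar-like cells, 15 each way, gave 52 higher and 50 lower without a filter and 9 lower without the 7 cells with amacrine markers, and ranged over 14 to 38 higher and 12 to 20 lower with a sample left out. Differences from other cone bipolar-like cells, 7 higher and 3 lower, gave 58 and 30 without a filter, 11 and 1 without the 7 cells, and 6 to 17 higher and 3 to 16 lower with a sample left out. Against either class, more genes were tested without a filter than in the main fit. The share of members among cells kept, -0.315 percentage points in OIR, turned to 0.035 without OIR replicate 2 and 0.802 without Ctrl replicate 1, and ranged from -0.953 to 0.802.

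Some uncalled genes changed sign. Vstm2b turned to 0.16 with replicates 2 and 3 alone and 0.14 without Ctrl replicate 1 (-0.74 to 0.14 with a sample left out), Glul to 0.055 with replicates 2 and 3 alone and 0.44 with at least 2 rule genes, and Clu to 0.43 without Ctrl replicate 1 (-1.86 to 0.43) and 0.19 with at least 2 rule genes. Slit2 turned to -0.37 with at least 4 rule genes, Lhx4 to -0.63 with at least 2, Btg2 to -0.029 with thinned cells, and Cryab to -0.189 with sex as a term and -0.071 without OIR replicate 2. The difference of Meis2 from other cone bipolar-like cells turned to 0.030 without the 7 cells. The causes were not tested. Depth limits the result: 2 samples in Ctrl held 29 and 32 members, and 3 counts over all members equal 0.708 CPM.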

Other observations

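Within the Reln/Vsx1 cells, the 144 cells with Reln but without Cck, Cnmd or Tnnt1 carried genes seldom found in the rest. Fn1, which encodes the matrix protein fibronectin, was detected in 83.3% of them and in 3.8% of the 390 cells with Reln and Cck, Cnmd or Tnnt1. In the 144 cells Fn1 stood at 1322, 1683 and 1016 CPM in OIR and at 433, 269 and 483 CPM in Ctrl, without overlap. Over all members it stood at 455, 869 and 246 CPM against 85.7, 158 and 203 CPM, a log2 fold change of 1.93 ± 0.41 (SE) that edgeR did not call (adjusted p = 0.067). Kcnab1, a potassium channel beta subunit gene, was found in 72.2% of the 144 cells against 9.5%, and Gsc2, a goosecoid-like homeobox gene, in 35.4%. These genes and groups were chosen after their values were seen.

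Among lists not described above, metal-binding and antioxidant genes had 14 of 20 tested and 0 called, 2 higher and 1 lower at an unadjusted p under 0.05, and 1 called by DESeq2, Mt1 (edgeR log2 fold change 1.38 ± 0.30, SE, adjusted p = 0.069). Mt2 stood at 260, 234 and 113 CPM against 70.9, 91.7 and 112 CPM. Transcription factors had 23 of 35 tested, 4 higher and 1 lower at that p. Sox4 stood at 410, 582 and 514 CPM against 302, 279 and 347 CPM, without overlap (adjusted p = 0.133). Adhesion and guidance genes had 30 of 61 tested, 3 higher and 1 lower, with Lsamp, a cell adhesion gene, at -1.07 ± 0.25 (SE, adjusted p = 0.106). Peptide processing and reelin signalling had 12 of 19 tested, 0 higher and 1 lower, with Scg2 at 1257, 1223 and 1500 CPM against 2398, 1146 and 1893 CPM. Immediate early genes had 8 of 13 tested and 1 lower, and heat shock genes 13 of 18 tested and 0 in either direction. In the test of OIR against Ctrl, edgeR called none of the genes tested in these last 5 lists. Differences from rod bipolar-like cells were called for Fos, given above, Junb (1.19, adjusted p = 0.027) and Slit2 (1.22, adjusted p = 0.021). DESeq2 gave an adjusted p to 21 of 23 transcription factors, 22 of 30 adhesion, 9 of 12 peptide, 5 of 8 immediate early and 10 of 13 heat shock genes and called none of those.

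Markers of other cells appeared in single samples. Lens and blood markers summed to 477 CPM in OIR replicate 2 and 248 CPM in Ctrl replicate 1, and to at most 41.0 CPM in the other samples.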
